A study of Mus musculus with 7 samples.

Results

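Cdx1, Cdx2, Hnf4a, Hnf4g, Gata6, Klf4 and Klf5 are 7 transcription factors of the intestinal epithelium, and their transcript levels were compared between Mex3a KO and Mex3a WT colon adenoma cells. The members were all probe sets that the platform annotation pairs with exactly 1 gene symbol equal to one of these names. That gave 15 probe sets, of 45037 on the array that are not controls, and all 7 genes were measured, of 17097 genes with at least 1 such probe set. The data were 7 Affymetrix mouse expression arrays, 3 KO and 4 WT, deposited as log2 levels. KO animals carried a Tomato reporter allele of Mex3a over a floxed allele (Mex3a Tom/flox), and WT animals carried the reporter over an intact allele (Mex3a Tom/+). Both groups also had Villin CreERT2, a tamoxifen-inducible recombinase driven by the promoter of the epithelial gene villin, and APC fl/+, 1 floxed allele of the Wnt pathway brake Apc. Both received 4 doses of tamoxifen, then 2% dextran sulfate sodium (DSS, a polymer that injures the colon lining) in the water for 5 days, and adenomas were taken 2 months after DSS ended. From these, cells with the epithelial surface protein Epcam and with Tomato, the readout of the Mex3a promoter, were sorted, and RNA of 2000 cells was amplified over 24 cycles. The labels give neither the age of the animals nor whether the Tomato allele itself still makes Mex3a. The WT group therefore has 1 known intact Mex3a allele, and every value below describes reporter-positive cells only.

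Intestinal cells keep their identity through a small set of transcription factors that bind the same enhancers. The homeodomain proteins CDX1 and CDX2 set the hindgut programme during development and maintain it in the adult, and loss of CDX2 in the mouse gut lets stomach genes come on. The nuclear receptors HNF4A and HNF4G act redundantly to turn on genes of absorption, lipid handling and the brush border. GATA6 is a zinc finger factor of crypt and colon cells. KLF4 and KLF5 bind similar GC-rich and CACCC sequences with opposed effects on growth: KLF4 is found in differentiated cells, restrains proliferation and is needed for goblet cells of the mouse colon, while KLF5 is found in proliferating crypt cells.

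Across the whole series, the median log2 level per array ran from 5.96 to 5.97 in KO and from 5.96 to 6.00 in WT. Mex3a, the deleted gene, stood at 6.18, 6.29 and 6.07 in KO, against 7.41, 7.38, 7.50 and 7.01 in WT on its brighter probe set. The arrays went through 2 scan batches. Batch 1 held KO replicate 1 and WT replicates 1 and 2, and batch 2 held the other arrays. The RNA of KO replicate 3 and WT replicate 2 had signal of the Y-linked gene Eif2s3y (9.02 and 8.92, against 4.17 to 4.29 in the other arrays). Separate animals behind the arrays are not stated in the labels, so p-values cover the spread among these 7 samples, part of which may be technical. The number of arrays limits the precision. Epithelial markers were bright, with a mean log2 level over 8 of 8 listed genes of 11.06 to 11.28 in KO and 11.06 to 11.23 in WT. Markers of leukocytes averaged 5.89 to 6.08 in KO and 5.93 to 6.03 in WT over the 11 of 12 on the array, and those of endothelium 5.57 to 5.69 in KO and 5.63 to 5.71 in WT over 8 of 8. The defining leukocyte gene Ptprc lay below the level filter of 5.28 described under Klf4 and Klf5, at 4.07 to 4.25 in KO and 4.02 to 4.11 in WT. Of the 11 leukocyte genes on the array, 8 were above that filter, with Cd68 at a mean of 7.26 in KO and 7.32 in WT.

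KO was set against WT in limma with scan batch as a term. None of the 7 factors passed an adjusted p of 0.05 over all 12822 genes tested, and 0 of the 12822 genes did (percent called 0). Mex3a, the deleted gene, differed by -1.13 (SE 0.13, limma adjusted p = 0.142) and so was not called either. A missing call is therefore no sign of an unchanged level. An unadjusted p under 0.05 was reached by 1462 genes, of which 916 had the higher level in KO (7.14%) and 546 the lower (4.26%). Klf5, with the higher level in KO, was the 1 factor to reach it. No factor had its KO arrays all above or all below its WT arrays in this fit (2.68% and 3.23% of all genes). The fitted difference was positive for 5 of the 7 factors and negative for 2, where 43.9% of all genes had a positive one. The median difference of the 7 was 0.08 on the log2 scale, against -0.019 for all genes tested. Of the 15 probe sets, 8 had a positive difference (41.9% of all probe sets). An unadjusted p under 0.05 was found for 2 with the higher level in KO (5.58% of all probe sets) and 1 with the lower level (3.81%), and 0 passed after adjustment. All KO arrays lay above all WT arrays in 1 of the 15 (2.16% of all probe sets) and below them in 1 (2.80%). With so few members, counts of 1 or 2 do not set the factors apart from the rest of the array.

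**Figure D1:**
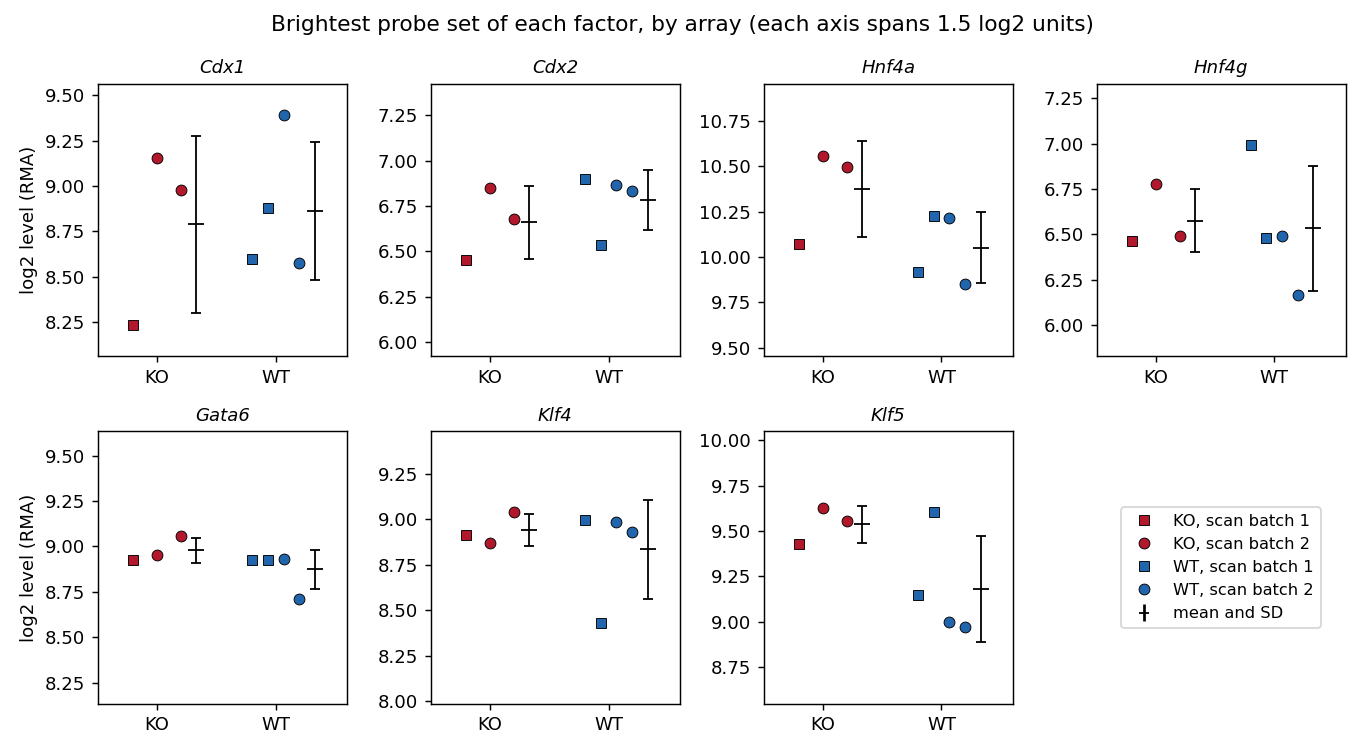
Log2 level (vertical axis, RMA units) of the brightest probe set of each factor in the 3 KO arrays (red, left) and the 4 WT arrays (blue, right), with squares for scan batch 1, circles for scan batch 2, and the mean and SD beside each group. Each panel spans 1.5 log2 units. KO and WT overlap in every panel, and for Klf5 the overlap comes from WT replicate 2 at 9.60.

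Cdx1, a homeodomain factor of the crypt (gene ID 12590, GRCm38.p6 chromosome 18, 61018862 to 61036199), varied more among arrays than between genotypes. Its 1 probe set read 8.24, 9.15 and 8.98 in KO, against 8.60, 8.88, 9.39 and 8.58 in WT. The lowest array was a KO array, KO replicate 1, and the highest a WT array, WT replicate 3, and the groups overlapped between 8.58 and 9.15. The means were 8.79 ± 0.49 in KO (SD, n = 3) and 8.86 ± 0.38 in WT (SD, n = 4). The log2 difference was -0.15 (SE 0.21, 95% interval -0.64 to 0.34, limma adjusted p = 0.778). Within scan batch 2 it turned to 0.081, so its direction was set by KO replicate 1.

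Cdx2, the paralog that is known as a tumour suppressor in the mouse colon (gene ID 12591, chromosome 5, 147300900 to 147307249), had slightly lower means in KO on both probe sets. Neither had a call after adjustment. The brighter one read 6.45, 6.85 and 6.68 in KO, against 6.90, 6.54, 6.87 and 6.83 in WT. WT replicate 2 stood among the KO arrays and KO replicate 2 among the WT arrays. The difference was -0.16 (SE 0.11, interval -0.41 to 0.089, limma adjusted p = 0.565). The dimmer one read 5.20, 5.28 and 5.26 in KO, against 5.43, 5.31, 5.41 and 5.36 in WT, so that every KO array lay below every WT array, by a gap of only a few hundredths of a log2 unit. Its difference was -0.14 (SE 0.057, interval -0.27 to -0.0064). The limma unadjusted p was 0.042 and the adjusted p 0.524 among all probe sets, with a two-sided exact permutation p of 0.0571. Its mean of 5.32 was just above the level under which the lowest 25% of genes lie. Both probe sets kept a negative difference in both scan batches, at -0.27 and -0.17 in batch 1 and at -0.086 and -0.11 in batch 2. The bright and dim probe sets differed between genotypes by about the same amount (difference of differences 0.0072, exact permutation p = 1).

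The start region of Cdx2 is given because the gene was the 1 factor of the 7 with the same sign on several probe sets and in both batches. RefSeq start windows (250 bases before to 50 after an annotated start, GRCm38.p6) were at hand for 3 of the 7 factors, in 4 windows. In each, both strands were searched for the letters TTTATG of Cdx factors, CAAAGTCC of Hnf4 factors, AGATAA of Gata factors, CACCC of Klf factors, CCGCCC of Klf or Sp factors and GTTAAT of Hnf1 factors. A CACCC match can overlap a CCGCCC match. Capitals mark every match. The Cdx2 window, on the minus strand at chr5:147307200-147307499, held 1 CACCC match and 1 GTTAAT match.
Cdx2 start window: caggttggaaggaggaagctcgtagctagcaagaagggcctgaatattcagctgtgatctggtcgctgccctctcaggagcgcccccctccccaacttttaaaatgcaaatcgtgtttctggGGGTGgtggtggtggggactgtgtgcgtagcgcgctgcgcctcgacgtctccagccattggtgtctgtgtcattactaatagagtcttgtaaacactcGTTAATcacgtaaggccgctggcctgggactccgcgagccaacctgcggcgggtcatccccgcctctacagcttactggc
Of all 32851 windows of this length, 57.5% hold CACCC, 35.7% CCGCCC, 11.9% TTTATG, 11.2% AGATAA, 7.10% GTTAAT and 1.42% CAAAGTCC. A match is a description of letters and not a binding site.

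Hnf4a (gene ID 15378, chromosome 2, 163506811 to 163572907) was measured by 4 probe sets, whose differences were not all of 1 sign. The brightest, 1427001_PM_s_at, read 10.07, 10.56 and 10.49 in KO, against 9.92, 10.23, 10.21 and 9.85 in WT. KO replicates 2 and 3 stood above every WT array, and KO replicate 1 lay between the WT arrays. The means were 10.38 ± 0.26 in KO (SD, n = 3) and 10.05 ± 0.20 in WT (SD, n = 4), a difference of 0.30 (SE 0.14, interval -0.029 to 0.62) or 1.23-fold, with a limma adjusted p of 0.461. Within scan batch 2 it was 0.50 and within batch 1 it was -0.0022, where the KO side is KO replicate 1 alone.

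The other 3 Hnf4a probe sets had means of 7.76 to 8.10 over all arrays and overlapped between genotypes. 1450447_PM_at read 8.14, 8.05 and 7.99 in KO, against 8.05, 7.88, 8.53 and 8.05 in WT, and 3 arrays shared the value 8.05. Its difference was -0.091 (SE 0.15), with WT replicate 3 standing apart as the highest array. 1427000_PM_at read 7.57, 8.01 and 7.85 in KO, against 7.92, 8.08, 7.86 and 7.57 in WT, a difference of -0.043 (SE 0.15). 1421983_PM_s_at read 7.26, 8.18 and 8.10 in KO, against 7.47, 7.92, 7.91 and 7.47 in WT, a difference of 0.096 (SE 0.21). On this last probe set KO held both the highest arrays and the lowest one. The limma adjusted p of the 3 was 0.856 to 0.938.

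Whether the brightest Hnf4a probe set differed between genotypes by another amount than the other probe sets was tested on the difference between probe sets in each array. Against 1427000_PM_at that difference put the 3 KO arrays above the 4 WT arrays with no overlap, by 0.37 (exact permutation p = 0.0571, adjusted p = 0.240 over 6 such contrasts in the 7 factors). Against 1450447_PM_at it was 0.39 and against 1421983_PM_s_at 0.17, each with overlap (exact permutation p = 0.171 and adjusted p = 0.240 for both). No contrast had an adjusted p under 0.05. With the mean of the 4 probe sets in place of the brightest, the Hnf4a difference was 0.065. The Hnf4a value therefore depends on which probe set is read.

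Hnf4a is known to be transcribed from an upstream promoter called P2 and a downstream one called P1, which give proteins with different amino ends, and both are used in the colon. The 2 RefSeq start windows of the gene are printed because the probe set differences had both signs. No source here tells which transcripts each probe set reads. The starts lie 40298 bases apart on the plus strand. The upstream window, at chr2:163506607-163506906, held 3 CACCC matches, 1 CCGCCC match and 1 AGATAA match. The downstream window, at chr2:163546905-163547204, held 5 CACCC matches and 2 GTTAAT matches. Neither held TTTATG or CAAAGTCC.
Hnf4a upstream window: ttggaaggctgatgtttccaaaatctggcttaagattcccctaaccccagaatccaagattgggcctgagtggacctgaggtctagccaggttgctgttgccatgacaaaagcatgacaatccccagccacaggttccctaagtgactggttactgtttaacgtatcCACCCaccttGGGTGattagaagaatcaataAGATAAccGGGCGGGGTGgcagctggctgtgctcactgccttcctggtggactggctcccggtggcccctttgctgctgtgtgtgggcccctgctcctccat
Hnf4a downstream window: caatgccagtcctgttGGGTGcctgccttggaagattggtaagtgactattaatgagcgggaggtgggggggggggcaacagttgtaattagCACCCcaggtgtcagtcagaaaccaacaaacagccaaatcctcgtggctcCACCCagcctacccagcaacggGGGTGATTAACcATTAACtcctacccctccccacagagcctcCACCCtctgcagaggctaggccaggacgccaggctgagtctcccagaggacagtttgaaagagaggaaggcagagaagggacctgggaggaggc

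Hnf4g, the paralog with overlapping targets (gene ID 30942, chromosome 3, 3508030 to 3659800), was near the middle of the array on 1 probe set and close to the bottom on 2. The brightest read 6.46, 6.78 and 6.49 in KO, against 6.99, 6.48, 6.49 and 6.17 in WT. WT held both the highest and the lowest array. The difference was 0.073 (SE 0.18, interval -0.34 to 0.48, limma adjusted p = 0.880). It was -0.28 within scan batch 1 and 0.30 within scan batch 2. The other 2 probe sets averaged 4.32 and 3.86 over all arrays, below the level filter, with differences of -0.034 (SE 0.049) and 0.037 (SE 0.030). On the dimmest, 4 arrays held 1 identical value, 3.86.

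Gata6 (gene ID 14465, chromosome 18, 11052510 to 11085636) was bright and flat on 1 probe set, and the other pointed the opposite way. The probe set 1425464_PM_at read 8.93, 8.95 and 9.06 in KO, against 8.93, 8.93, 8.93 and 8.71 in WT. Apart from KO replicate 3 and WT replicate 4, the arrays lay within a few hundredths of each other. Of these, KO replicate 1 and WT replicates 1 and 2 held 1 identical value, 8.927. The difference of this probe set was 0.11 (SE 0.094, interval -0.11 to 0.33, limma adjusted p = 0.636). 1425463_PM_at read 8.83, 8.70 and 8.62 in KO, against 8.97, 8.72, 9.16 and 8.83 in WT, a difference of -0.20 (SE 0.12, adjusted p = 0.620). KO replicate 3, the highest array on the first probe set, was the lowest on the second. The difference between the probe sets was 0.31 between genotypes (exact permutation p = 0.0857, adjusted p = 0.240), so no direction can be given for Gata6.

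**Figure D2:**
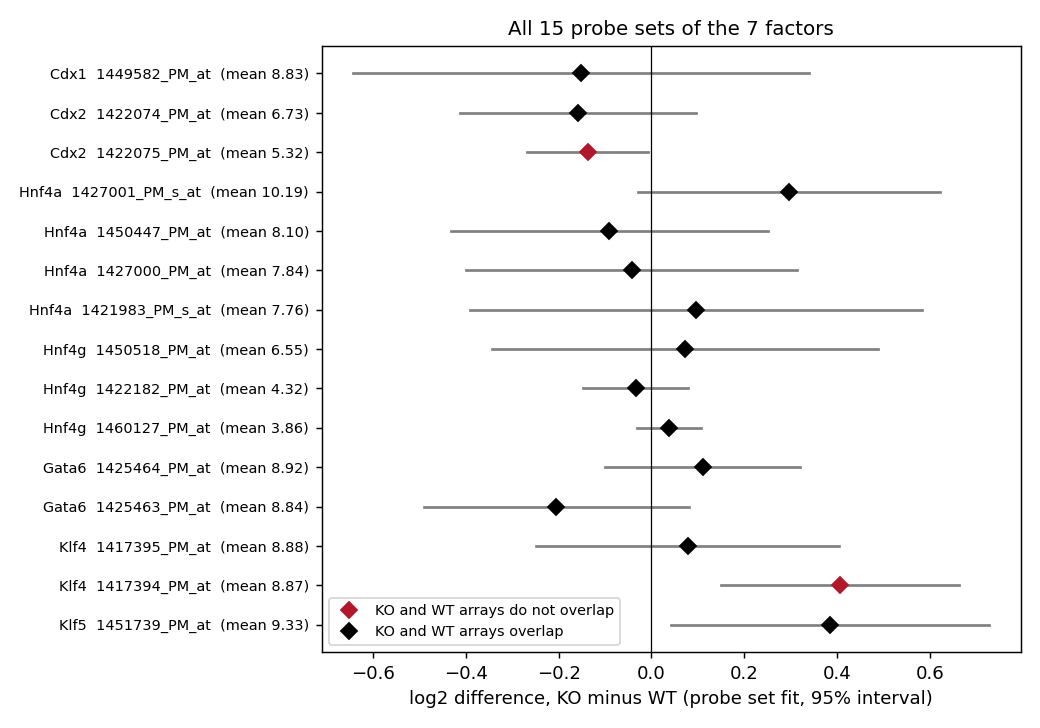
Log2 difference, KO minus WT, with its 95% interval (horizontal axis) for each of the 15 probe sets, ordered by factor, with the mean level over all arrays in brackets. Red diamonds mark the 2 probe sets whose KO and WT arrays do not overlap, 1 of Klf4 at 0.41 and the dimmer of Cdx2 at -0.14, and the 2 Gata6 probe sets fall on opposite sides of 0.

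Klf4 and Klf5 had the largest positive differences of the 15 probe sets, in Klf4 on only 1 of its 2 probe sets. For the fit per gene, the probe set with the highest mean stood for the gene, and the 25% of genes with the lowest means, at or below 5.28, were left out. The 2 probe sets of Klf4 (gene ID 16600, chromosome 4, 55527137 to 55532475) were almost equally bright, with means of 8.88 and 8.87 over all arrays, so the choice between them was nearly arbitrary. 1417394_PM_at read 8.84, 9.22 and 9.28 in KO, against 8.70, 8.75, 8.65 and 8.65 in WT. Every KO array lay above every WT array, and the WT arrays were close together. The means were 9.11 ± 0.23 in KO (SD, n = 3) and 8.69 ± 0.050 in WT (SD, n = 4). The difference was 0.41 (SE 0.11, interval 0.15 to 0.66) or 1.33-fold, with a limma adjusted p of 0.483 among all probe sets. By exact permutation the two-sided p was 0.0286, the smallest that 35 splits can give, and 0.0556 with arrays exchanged within scan batch, again the smallest possible there.

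The other Klf4 probe set, 1417395_PM_at, read 8.92, 8.87 and 9.04 in KO, against 9.00, 8.43, 8.99 and 8.93 in WT. Here WT replicate 2 stood far below all other arrays, and the rest overlapped. The difference was 0.078 (SE 0.14, interval -0.25 to 0.41, limma adjusted p = 0.836), and -0.031 without WT replicate 2. The 2 probe sets differed by 0.32 between genotypes, with overlap (exact permutation p = 0.20, adjusted p = 0.240), so that the disagreement itself is within the spread of the arrays. Within scan batch 1 the 2 probe sets were at 0.12 and 0.20, and within batch 2 at 0.60 and -0.0045.

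The start window of Klf4, given because 1 of its probe sets had no overlap between genotypes, lies on the minus strand at chr4:55532426-55532725. It held 4 CCGCCC matches, of which 2 overlap, and none of the other letters searched.
Klf4 start window: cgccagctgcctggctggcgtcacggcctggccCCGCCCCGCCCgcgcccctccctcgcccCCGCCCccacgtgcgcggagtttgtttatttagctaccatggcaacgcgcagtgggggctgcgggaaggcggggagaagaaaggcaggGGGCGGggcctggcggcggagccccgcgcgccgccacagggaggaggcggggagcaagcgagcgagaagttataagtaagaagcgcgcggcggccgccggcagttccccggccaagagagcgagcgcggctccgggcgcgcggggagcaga

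Klf5 (gene ID 12224, chromosome 14, 99298691 to 99313412) was among the brighter factors and had 1 probe set. It read 9.43, 9.63 and 9.55 in KO, against 9.15, 9.60, 9.00 and 8.97 in WT. WT replicate 2 was as high as the KO arrays, and the other 3 WT arrays lay below all of KO. The means were 9.54 ± 0.10 in KO (SD, n = 3) and 9.18 ± 0.29 in WT (SD, n = 4), a difference of 0.38 (SE 0.15, interval 0.039 to 0.73) or 1.31-fold. The unadjusted p was 0.0335, the limma adjusted p 0.417 and the exact permutation p 0.114. With a weight fitted to each array, the limma adjusted p was 0.0274 in the fit per gene and 0.0533 in the fit over all probe sets, in a setting that called 1370 genes in all, against a range of 0.0274 to 0.998 over the 19 alternatives. The weights were 0.297 for KO replicate 1 and 0.442 for WT replicate 2, the 2 lowest. Without WT replicate 2 the difference was 0.50 (limma adjusted p = 0.101).

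The high Klf5 array of WT stood with the KO arrays in another measure too. Gapdh is read by a probe set near each end of its transcript, and the 3' level minus the 5' level, a measure of how far amplification reached along a transcript, was -0.154, -0.213 and -0.239 in KO, against -0.131, -0.209, -0.121 and -0.121 in WT. The 4 arrays with the lowest values were the 3 KO arrays and WT replicate 2, the same 4 as the highest for Klf5. The same measure on actin did not give this order, with -0.301, -0.515 and -0.446 in KO, against -0.485, -0.429, -0.497 and -0.449 in WT. With the Gapdh difference as a further covariate, the Klf5 difference was 0.12 (SE 0.096 in that fit) and that of the brightest Hnf4a probe set 0.080 (SE 0.12). The Klf4 probe sets stood at 0.25 (1417394_PM_at) and 0.26 (1417395_PM_at), so the first was smaller and the second larger than without it. Cdx1 moved further from 0, to -0.38 (SE 0.24), Cdx2 stood at -0.11, Hnf4g at 0.046 and Gata6 at 0.048. No factor had a call in that fit (limma adjusted p = 0.715 to 0.979). The part of amplification in the Klf5 and Hnf4a values was not tested. Dissociation stress genes, given because Klf4 belongs to the genes that respond quickly to handling, averaged 9.28 to 9.78 in KO and 9.43 to 9.76 in WT over 13 genes, and their part in the Klf4 value was not tested.

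Scan batch 2 gave the larger positive differences. Of the 7 brightest probe sets, 1 for each factor, 6 had a higher difference in batch 2 than in batch 1, where 53.7% of all genes tested did. Of all 15 probe sets 12 did, a count for which the share over the whole array was not computed. Probe sets of the same gene on the same arrays are not independent. The KO side of batch 1 is 1 array, KO replicate 1, which was the lowest of all 7 arrays for Cdx1, for both probe sets of Cdx2 and for 2 of the 4 of Hnf4a. For Klf5 the difference was 0.053 within batch 1 and 0.60 within batch 2. The difference between batches was not tested, and with 1 KO array in batch 1 the batch and that array cannot be told apart.

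**Figure D3:**
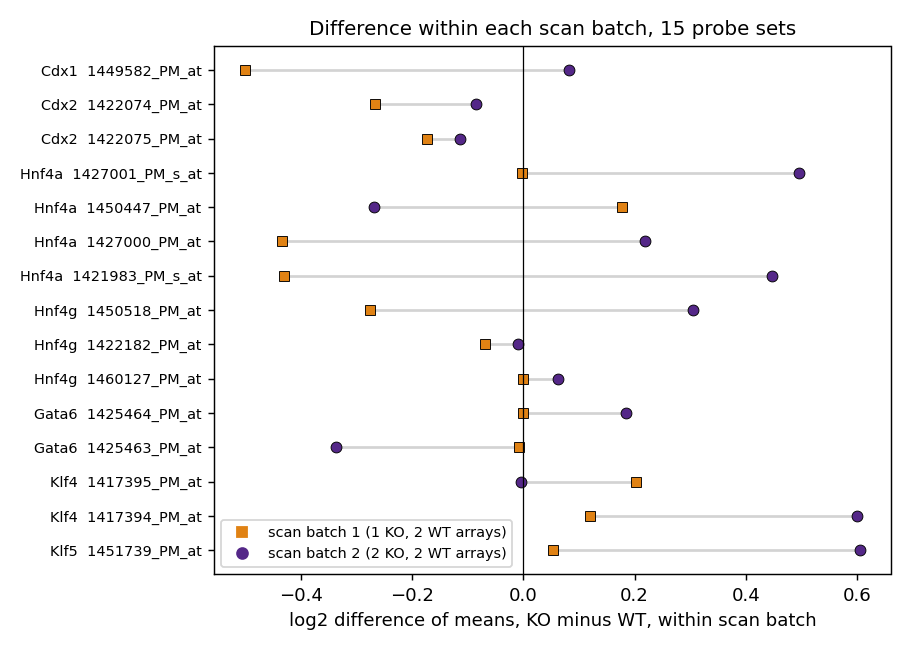
Difference of means, KO minus WT, on the log2 scale (horizontal axis) within scan batch 1 (orange squares, 1 KO and 2 WT arrays) and within scan batch 2 (purple circles, 2 KO and 2 WT arrays) for the 15 probe sets. Klf5 and 1417394_PM_at of Klf4 are positive in both batches, and Cdx2 is negative in both. Cdx1, 1417395_PM_at of Klf4, the brightest Hnf4g probe set and all 4 Hnf4a probe sets have differences of opposite sign in the 2 batches. Among these, the brightest Hnf4a probe set is at only -0.0022 in batch 1 and 1417395_PM_at at only -0.0045 in batch 2.

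Within each family, the 2 factors were compared by the difference of their log2 levels in each array, set to a mean of 0 over all arrays because levels of different probe sets have no common scale. Cdx1 minus Cdx2 stood at -0.31, 0.20 and 0.20 in KO, against -0.40, 0.24, 0.42 and -0.35 in WT, a KO minus WT difference of 0.053. Hnf4a minus Hnf4g stood at -0.030, 0.14 and 0.36 in KO, against -0.72, 0.11, 0.082 and 0.046 in WT, a difference of 0.28 that came mostly from WT replicate 1. Klf4 minus Klf5 stood at -0.062, -0.31 and -0.062 in KO, against 0.30, -0.72, 0.44 and 0.41 in WT, a difference of -0.25. Apart from WT replicate 2, every WT array stood above every KO array in this difference. With 1417394_PM_at for Klf4 the sign turned, to 0.070. None of the 3 pairs differed beyond the spread between arrays (two-sided exact permutation p = 0.857, 0.457 and 0.514, adjusted p = 0.857, 0.771 and 0.771 over the 3 pairs).

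Other transcription factors of the gut showed 0 calls. Of 20 listed genes 13 were tested, 7 with a positive and 6 with a negative difference, with a median of 0.043. Foxa1, a forkhead factor of endoderm, read 9.08, 9.07 and 9.02 in KO, against 9.08, 8.92, 8.79 and 8.80 in WT, a difference of 0.19 (SE 0.086). Ehf, an epithelial ETS factor, differed by 0.15 (SE 0.084) and Creb3l3, a membrane-bound factor of lipid metabolism, by -0.16 (SE 0.091). Gata4, which marks the proximal gut, was below the level filter in this colon tissue, at 5.14 to 5.23 in KO and 4.99 to 5.28 in WT.

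Of 15 other Klf family members 11 were tested, 3 with a positive and 8 with a negative difference, and the median was -0.082. Klf10, a factor induced by TGF-beta, followed the arrays as Klf5 did. It read 10.07, 10.08 and 9.87 in KO, against 9.59, 10.06, 9.54 and 9.62 in WT, with WT replicate 2 again among the KO arrays, a difference of 0.34 (SE 0.12, limma adjusted p = 0.414). Klf6 and Klf2, both quickly induced factors, differed by -0.28 (SE 0.19) and -0.23 (SE 0.18).

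Genes known to depend on these factors gave 0 calls as well. Among genes linked to Cdx factors 7 of 11 were tested, 5 with a positive and 2 with a negative difference (median 0.069). Krt20, a keratin of differentiated surface cells, differed by 0.61 (SE 0.50), with KO replicate 2 at 8.36 and the other arrays between 5.98 and 7.00. Cdh17, the intestinal cadherin that CDX2 activates, differed by 0.17 (SE 0.15), and Car1, a carbonic anhydrase of colonocytes, by 0.22 (SE 0.22). Among genes linked to Hnf4 factors 12 of 15 were tested, 3 with a positive and 9 with a negative difference (median -0.053). With the lowest 50% of genes left out the median was 0.13, so its sign depends on the dim members. Apoa1, Mttp and Apoc2, which package and carry lipid, differed by -0.24 (SE 0.10), -0.18 (SE 0.083) and -0.18 (SE 0.097). All 3 were dim, with every array between 5.96 and 6.74. The 3 members with a positive difference were brighter. They were the fatty acid enzyme Acsl5 with 0.20 (SE 0.11), the carrier protein Ttr with 0.18 (SE 0.15) and the brush border protein Cdhr5 with 0.13 (SE 0.18). Cpt1a and Cdhr2, also brighter, had negative differences of -0.083 (SE 0.14) and -0.054 (SE 0.25). Among genes linked to Klf4 and Klf5 9 of 12 were tested, 3 with a positive and 6 with a negative difference (median -0.029). The 2 factors have opposed effects on growth, so a count and median over this pooled list cannot show a change in either. The mitotic kinase gene Cdk1 and the cyclin gene Ccnd1, of the growth programme these factors act on, differed by -0.10 (SE 0.075) and -0.12 (SE 0.095).

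Stomach genes, which come on when CDX2 is lost, had no call. Of 14 listed genes 13 were on the array and 8 were tested, 1 with a positive and 7 with a negative difference (median -0.084), and their mean level was 5.92 to 5.97 in KO and 5.96 to 6.07 in WT, near the median of the array. The highest was Ctse, a cathepsin, at a mean of 8.07 in KO and 8.24 in WT. Sox2, the foregut factor, lay between 3.90 and 3.95 in KO and between 3.87 and 3.98 in WT. Atp4a, the acid pump of parietal cells, read 6.08, 6.21 and 5.98 in KO, against 6.99, 6.33, 6.57 and 6.30 in WT, without overlap (3.23% of all genes lay below WT in all KO arrays), a difference of -0.43 (SE 0.17, limma adjusted p = 0.414). Cldn18, a claudin of stomach epithelium, differed by -0.23 (SE 0.12), and Tff2, a trefoil peptide, by 0.076 (SE 0.062).

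Markers of mature colon cells had 0 calls. In these bulk samples, fewer cells of a type and less RNA per cell cannot be told apart. Of 11 listed colonocyte genes 10 were tested, and 7 had a positive difference (median 0.079). The sign of that median was not stable: it was -0.077 in scan batch 1, -0.039 without KO replicate 2, -0.014 with the Gapdh covariate and 0.39 without KO replicate 1. Guca2a, the guanylin precursor, read 10.12, 10.85 and 10.68 in KO, against 8.88, 10.19, 10.08 and 9.40 in WT, a difference of 0.85 (SE 0.30, limma adjusted p = 0.414), or 0.42 with the Gapdh covariate. Slc26a3, the chloride exchanger of surface colonocytes, stood at 7.14 in KO replicate 2 and between 4.81 and 5.23 in all other arrays. Aqp8, a water channel, differed by -0.11 (SE 0.076). Of 10 listed goblet cell genes 6 were tested, and 5 had a positive difference (median 0.45). Atoh1 differed by 0.63 (SE 0.27), the trypsin inhibitor family gene Spink4 by 0.53 (SE 0.27) and the trefoil gene Tff3 by 0.81 (SE 0.44). Fcgbp differed by 0.36 (SE 0.25), Agr2 by only 0.091 (SE 0.24) and Spdef by -0.065 (SE 0.16). Zg16, Clca1 and Retnlb were below the level filter, with KO and WT overlapping in each. With the Gapdh covariate Atoh1 stood at 0.15, Tff3 at 0.22 and the median at 0.021. That covariate went in part with genotype, with the KO arrays and WT replicate 2 at the lowest values. What belongs to the covariate and what to genotype was not tested. The goblet median was 0.0041 in scan batch 1 and 0.091 with no level filter. The goblet list averaged 7.61, 8.03 and 8.10 in KO, against 7.19, 7.91, 7.94 and 7.64 in WT over 9 genes, and its part in the Klf4 value was not tested. Dissociation stress genes had 3 positive and 10 negative differences of 13 tested (median -0.050), with Atf3 at -0.54 (SE 0.18), Btg2 at -0.43 (SE 0.17) and Fosb at -0.51 (SE 0.22), all of them without a call. Krt4, an epithelial keratin listed with the targets of Klf4 and Klf5, differed by 0.23 (SE 0.25).

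Markers of non-epithelial cells were compared because other cells could enter the sort. Fibroblast genes averaged 6.09 to 6.61 in KO and 6.05 to 6.60 in WT over 10 of 10, smooth muscle genes 6.15 to 6.55 in KO and 6.17 to 6.47 in WT over 4 of 5, enteric neuron and glia genes 5.40 to 5.50 in KO and 5.40 to 5.57 in WT over 5 of 6, and erythroid genes 6.71 to 7.40 in KO and 6.83 to 7.22 in WT over 2 of 5. In Vim and Cdh5 every KO array lay below every WT array, as in 3.23% of all genes tested. Vim is of the fibroblast list, where 3 of 6 genes tested had a positive and 3 a negative difference. Cdh5 is of the endothelium list, where 2 of 5 genes tested had a positive and 3 a negative difference. Vim, the filament protein vimentin, read 11.20, 11.09 and 11.24 in KO, against 11.62, 11.62, 11.38 and 11.36 in WT, a difference of -0.29 (SE 0.062, limma adjusted p = 0.329). Cdh5, the cadherin of endothelium, read 6.05, 6.17 and 6.11 in KO, against 6.42, 6.48, 6.73 and 6.38 in WT, a difference of -0.41 (SE 0.093, limma adjusted p = 0.353). Their part in the values of the 7 factors was not tested.

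**Figure D4:**
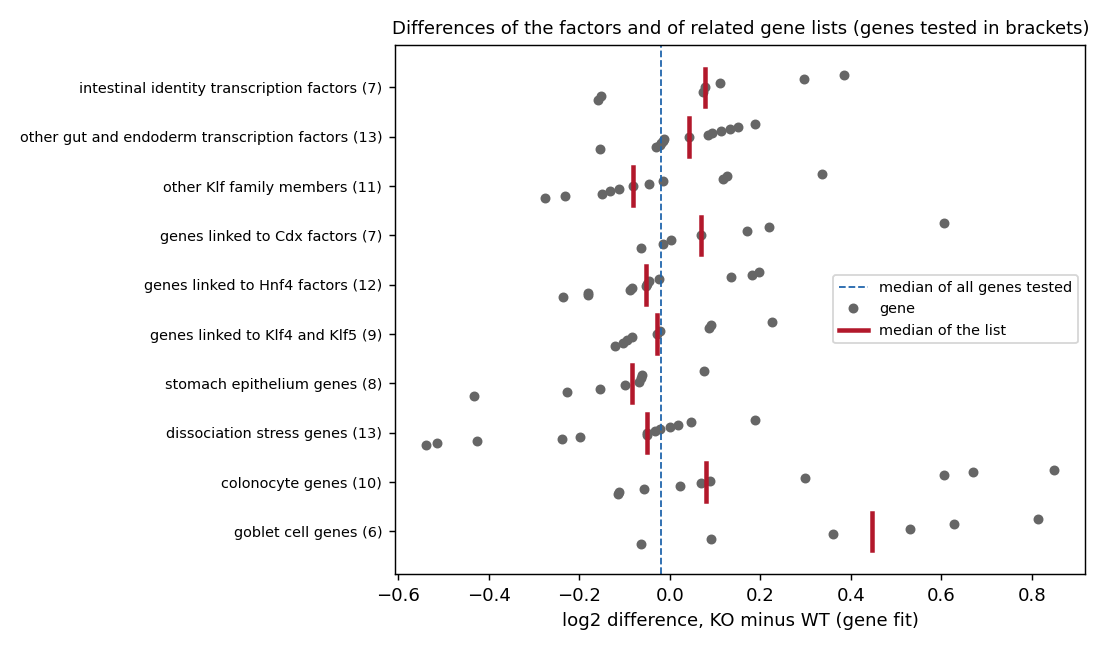
Log2 difference, KO minus WT, from the fit per gene (horizontal axis) for each tested gene (grey points) of the 7 factors and of 9 related lists, with the list's median in red and the median of all genes tested, -0.019, as a dashed line. The 7 factors spread from -0.16 to 0.38 around a median of 0.08. The goblet cell list has the highest median here, 0.45 over 6 genes. That median was 0.021 with the Gapdh covariate, which went in part with genotype.

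The genes whose levels over the 7 arrays were most like those of a factor, by Pearson correlation, were listed as a description only. With 7 arrays a high correlation is common: between 31 genes (for Klf4) and 396 genes (for Klf5) reached over 0.9. The nearest were Ripk3 and Tekt2 for Cdx1 (0.99 and 0.98), Srpk1 and Arntl2 for Cdx2 (0.99 and 0.96), and Slc12a8 and Tspan8 for Hnf4a (both 0.99). They were Uchl3 and Kif3a for Hnf4g (both 0.98), Ess2 and Gramd1b for Gata6 (both 0.99), Lgi4 and Ikzf1 for Klf4 (0.98 and 0.96), and Sumf1 and Fam117b for Klf5 (both 0.99). All points share the genotype, the scan batch and the amplification of their array.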

How the data were processed

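Expression was measured on 7 Affymetrix arrays (3 KO, 4 WT; groups from the genotype label, replicates numbered in accession order). Each deposited value is a log2 level, which the authors computed with RMA, per the submitters' processing notes. No source here gives its version or any filter or batch step. Of 45141 probe sets, 104 were controls, 28898 had 1 gene symbol, 551 several and 15588 none. In 44.3% of probe sets some arrays share a value exactly.

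KO minus WT was fitted with limma 3.58.1 in R 4.3.3 (trend, scan batch as covariate, two-sided, Benjamini-Hochberg, 4 residual degrees of freedom), once per gene (brightest probe set, lowest 25% left out, 12822 genes) and once over all 45037 probe sets. Group means and SDs come from the values themselves. Exact permutation used 35 splits, or 18 within scan batch (smallest p 0.0286 and 0.0556). The fit was tested on simulated data.

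Named were the 7 factors, Mex3a, 3 genes of smallest p per list and the 2 most alike genes per factor. Gata4, Sox2, Ptprc, Cd68, Eif2s3y, Vim, Cdh5, Acsl5, Ttr, Cdhr5, Cpt1a, Cdhr2 and Ctse were chosen after their values were seen. So were the goblet cell genes Fcgbp, Agr2, Spdef, Zg16, Clca1 and Retnlb. The members and lists were chosen with earlier results of these data known. Alternatives covered the level filter, the probe set used, batch, weights, trend, centring, the Gapdh difference, each array left out and, added after seeing the data, the arrays without Y-linked signal and the contrasts between probe sets of 1 gene. Start windows are from RefSeq (GRCm38.p6).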

Additional observations from a re-analysis of the deposited data

Results flagged for a closer look

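In 9 of 47 sets of 4 WT values, 1 array stood apart by Dixon's test, where chance gives about 1 in 20; shared values within a group make the test easier to pass. WT replicate 2 stood apart in 1417395_PM_at of Klf4, at 8.43 against 8.93 to 9.00 in the other WT arrays, and in Klf4 minus Klf5, at -0.723 against 0.30 to 0.44. It also stood apart in Klf10, at 10.06 against 9.54 to 9.62, and in the dim 1422182_PM_at of Hnf4g, at 4.49 against 4.29. WT replicate 4 stood apart in 1425464_PM_at of Gata6, at 8.71 against 8.93, and in Cdk1, at 9.70 against 9.54 to 9.56. WT replicate 3 stood apart in the dimmest Hnf4g probe set, at 3.78 against 3.86, and in Tff2, at 6.01 against 6.05. WT replicate 1 stood apart in Hnf4a minus Hnf4g, at -0.716 against 0.046 to 0.11.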

How the results depend on the processing

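No paired analysis was possible because the labels give the 2 genotypes no shared replicate numbers. The direction of Klf5, of Cdx2 and of 1417394_PM_at of Klf4 held under all alternatives run on them. Array weights brought Klf5 to 0.55 and Mex3a to -1.18, both past the threshold in the fit per gene (Klf5 at 0.54 with a limma adjusted p of 0.0533 in the fit over probe sets), and called 1370 genes, against 0 in the fit without them. Among them were Guca2a (0.86), Btg2 (-0.50), Apoa1 (-0.29), Atoh1 (0.72) and Klf10 (0.44). With 1 array left out, 0 to 2 genes were called, and Mex3a (-1.27 to -1.02) passed without WT replicate 4. Left-out arrays moved Cdx1 from -0.41 to 0.081, the fitted Klf4 probe set from -0.031 to 0.16 (-0.0045 without KO replicate 1), Hnf4g from -0.066 to 0.30 (-0.056 without KO replicate 2), 1421983_PM_s_at of Hnf4a from -0.10 to 0.45 (-0.012 without KO replicate 2), 1427000_PM_at from -0.18 to 0.22 (0.029 without WT replicate 2), 1450447_PM_at from -0.27 to 0.074 and the dim 1422182_PM_at of Hnf4g from -0.062 to 0.0021. They moved Klf2 from -0.39 to 0.070, Krt4 from -0.010 to 0.43 and Cdx1 minus Cdx2 from -0.074 to 0.22 (-0.034, -0.032 and -0.058 without KO replicates 2 and 3 and WT replicate 4). In scan batch 1 alone the brightest Hnf4a probe set was at -0.0022, 1450447_PM_at at 0.18, 1421983_PM_s_at at -0.43, Hnf4g at -0.28 (-0.275), Krt20 at -0.43 and Cdh17 at -0.17. In scan batch 2 alone Cdx1 was at 0.081, 1417395_PM_at of Klf4 at -0.0045, 1427000_PM_at at 0.22 and Klf2 at 0.070. Other probe set choices turned Gata6 to -0.047 (mean) and -0.20 (largest variance, -0.205) and Klf4 minus Klf5 to 0.070. Array weights turned Klf4 to -0.036 (-0.028 in the probe set fit) and 1427000_PM_at to 0.092. The Gapdh difference as covariate turned Krt20 to -0.015, Cdh17 to -0.078, Krt4 to -0.033, 1450447_PM_at to 0.086 and 1421983_PM_s_at to -0.26. On the 5 arrays without Y-linked signal Klf4 was at -0.087 and 1427000_PM_at at 0.020. List medians that moved most were those of goblet genes (0.0041 to 0.66), colonocyte genes (-0.077 to 0.39), Cdx-linked genes (-0.15 to 0.18), Hnf4-linked genes (-0.072 to 0.13) and dissociation stress genes (-0.35 to 0.017). Apart from the changes of arrays and probe sets, the cause was not tested. The number of arrays limits the precision.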
